A study of Mus musculus with 21 samples.

Results

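The genes of the p53 response and of cellular senescence examined here were Cdkn1a, Cdkn2a, Trp53, Gadd45a, Gadd45b, Bbc3, Mdm2, Ccng1, Sesn1 and Bax. They were chosen by name, with earlier results of these data known, and each symbol was matched to its Ensembl mouse gene identifier. All 10 were found among the 55401 genes of the count table and all 10 passed the filter on low counts in every comparison. They were measured in forebrain RNA of 21 mice. The parental lines E2H, E3H and E4H (3 mice each) carry human APOE2, APOE3 or APOE4 in place of mouse Apoe on both chromosomes and were killed at 9 to 10 months. Another 4 mice each of PS/E2H, of PS/E3H and of PS/E4H carry the same APOE replacement and, in addition, the PS19 transgene, in which the mouse prion promoter drives human tau with P301S, and they were killed when their hind limbs were paralyzed.

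The PS19 line was kept on a mixed B6/C3H background and was crossed into the APOE lines, so that tau, paralysis, age at death and background alleles cannot be told apart wherever PS19 mice are set against parental mice. The mice were males except for 1 female in E4H, 1 in PS/E2H and 2 in PS/E4H, and since sex is known only per group, its part was not tested. Libraries held 59265459 to 75932183 counts (median 63751715), of which mitochondrial genes took 7.25% to 10.9%. All 48 markers of neurons, astrocytes, oligodendrocytes, microglia and vascular cells were detected in every mouse. Because the RNA came from whole tissue, fewer cells of a type and less RNA per cell cannot be told apart.

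The tumor suppressor p53, encoded by Trp53, is a transcription factor that is kept scarce by the ubiquitin ligase MDM2 and accumulates after DNA damage and other stress. It then activates genes that arrest the cell cycle, repair DNA, limit oxidative stress or start apoptosis, and Mdm2 itself is one of its targets. Senescent cells leave the cell cycle for good through the inhibitors p21, encoded by Cdkn1a, and p16Ink4a, encoded by Cdkn2a, and they release a mixture of cytokines and proteases. In neurons, which no longer divide, the same inhibitors are studied as signs of stress, and senescent glia have been described in tau transgenic mice.

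To compare levels between genes, FPKM was used, which scales the fragments of a gene by its transcript length and by library size. Over the 21 mice, mean FPKM was 24.7 for Ccng1, 16.2 for Bax and 15.3 for Sesn1, the 3 most abundant members. Cdkn1a averaged 8.87 FPKM, but ranged from 2.80 to 37.5 between mice, the widest range of the 10 relative to its mean. Mdm2 averaged 7.31 FPKM, Gadd45b 6.59, Trp53 4.51, Gadd45a 2.85 and Bbc3 1.59. Cdkn2a was the least abundant, with a mean of 0.889 FPKM and 37 to 155 counts per mouse. The lowest Ccng1 value, 19.9 FPKM, lay above every value of the other members except Cdkn1a and Sesn1. The ranges of Bax (14.3 to 18.8) and Sesn1 (13.6 to 21.5) overlapped, as did those of Mdm2 (6.19 to 8.38), Gadd45b (4.35 to 9.20) and Trp53 (3.60 to 5.45) with their neighbours in this order. The range of Bbc3 (1.24 to 1.996) overlapped that of Gadd45a (1.97 to 4.25) at its top and that of Cdkn2a (0.387 to 1.84) below.

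The promoters of the members whose counts passed the test are printed to show which of them hold a decamer of the kind found in p53 response elements. That of Mdm2, a further target of p53, is added. The 10 members have 15 annotated promoters in the RefSeq table for GRCm38.p6, each 250 bases before to 50 bases after a start site. A p53 decamer, the unit that p53 response elements hold in pairs, was searched without mismatch on both strands, and 7 promoters of 7 members (Cdkn1a, Ccng1, Sesn1, Mdm2, Bax, Trp53 and Gadd45a) held at least 1, where 8.36% of all 32851 mouse promoters in the table did. In the lines below, 5′ to 3′ and up to the first annotated exon base, capitals mark the p53 decamer, or in Cdkn2a, which held none, the GC box GGGCGG, which 35.7% of all promoters hold on either strand; the Cdkn2a second promoter held neither in the stretch shown.
Cdkn1a first promoter, chr17:29090729-29090975, plus strand: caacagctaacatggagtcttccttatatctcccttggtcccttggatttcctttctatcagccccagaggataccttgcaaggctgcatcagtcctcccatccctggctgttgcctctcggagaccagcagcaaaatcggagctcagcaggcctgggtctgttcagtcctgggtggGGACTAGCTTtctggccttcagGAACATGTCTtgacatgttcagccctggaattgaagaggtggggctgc
Ccng1 promoter, chr11:40755312-40755536, minus strand: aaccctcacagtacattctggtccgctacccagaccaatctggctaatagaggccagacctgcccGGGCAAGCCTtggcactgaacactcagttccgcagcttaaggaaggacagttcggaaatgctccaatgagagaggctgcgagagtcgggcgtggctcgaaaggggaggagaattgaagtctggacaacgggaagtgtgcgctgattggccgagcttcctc
Sesn1 second promoter, chr10:41887189-41887438, plus strand: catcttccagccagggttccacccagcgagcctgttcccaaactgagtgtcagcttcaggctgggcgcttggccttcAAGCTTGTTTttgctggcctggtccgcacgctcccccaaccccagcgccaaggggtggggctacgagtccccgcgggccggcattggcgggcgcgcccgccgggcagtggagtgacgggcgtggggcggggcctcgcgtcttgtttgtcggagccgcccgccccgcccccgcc
Mdm2 promoter, chr10:117710759-117711008, minus strand: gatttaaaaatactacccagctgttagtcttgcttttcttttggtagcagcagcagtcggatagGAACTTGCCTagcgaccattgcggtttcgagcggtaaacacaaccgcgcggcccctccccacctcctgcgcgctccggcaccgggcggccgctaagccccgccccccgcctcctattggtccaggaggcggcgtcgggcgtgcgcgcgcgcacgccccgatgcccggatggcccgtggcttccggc
Cdkn2a first promoter (p19Arf side), chr4:89294654-89294869, minus strand: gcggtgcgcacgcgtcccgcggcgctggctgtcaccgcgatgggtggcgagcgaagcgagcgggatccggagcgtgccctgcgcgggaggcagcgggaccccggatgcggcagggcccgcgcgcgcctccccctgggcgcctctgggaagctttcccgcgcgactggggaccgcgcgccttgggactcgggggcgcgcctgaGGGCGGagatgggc
Cdkn2a second promoter (p16Ink4a side), chr4:89282193-89282442, minus strand: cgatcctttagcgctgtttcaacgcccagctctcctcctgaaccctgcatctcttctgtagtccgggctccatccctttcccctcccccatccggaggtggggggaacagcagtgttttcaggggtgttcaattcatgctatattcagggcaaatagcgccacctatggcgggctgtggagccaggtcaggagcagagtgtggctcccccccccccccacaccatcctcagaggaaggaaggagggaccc
In Cdkn1a, p53 decamers began 73 and 51 bases before the first of its start sites, which lies 2790 bases before the second, and the second promoter held none. A decamer began 185 bases before the start site in Ccng1, 186 in Mdm2 and 173 in Sesn1, with 1 match in each and no pair. The start sites of Cdkn2a are 12427 bases apart: the first gives the transcript of p19Arf, which inhibits MDM2, and the second that of p16Ink4a, which inhibits CDK4 and CDK6, and the gene-level counts merge both. A match describes the letters only, and binding of p53 was not measured.

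To address whether mutant tau and paralysis go with a p53 or senescence response, all 12 PS19 mice were first compared with all 9 parental mice, with the APOE line as a term of the model. Cdkn1a, Ccng1 and Sesn1 were higher and Cdkn2a was lower in PS19 mice, and the other 6 members did not pass the test. This is 4 of 10 members, where 21% of the 22863 genes tested passed at an adjusted p under 0.05 (quasi-likelihood test of edgeR, Benjamini-Hochberg adjusted, as in all comparisons that follow), 11.4% of them higher and 9.63% lower. The median log2 fold change was 0.16 over the members and -0.01 over all genes. Within the APOE2 line alone no member passed, and there Cdkn2a differed by 0.19 and Ccng1 by 0.03 on the log2 scale. Only Cdkn1a among the members changed by 2-fold or more, which 2.60% of all genes did together with the adjusted p, and it was the only member whose PS19 and parental mice did not overlap, which held for 1.53% of all genes. Glial markers moved with the same contrast: the summed CPM (counts scaled to library size, with TMM factors over all mice) of 12 microglia markers was 480.2 to 660.5 in parental and 807 to 1507 in PS19 mice, and that of 9 astrocyte markers 3832 to 4460.2 and 5469 to 7504. The part of cell composition in the members' changes was not tested.

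**Figure D1:**
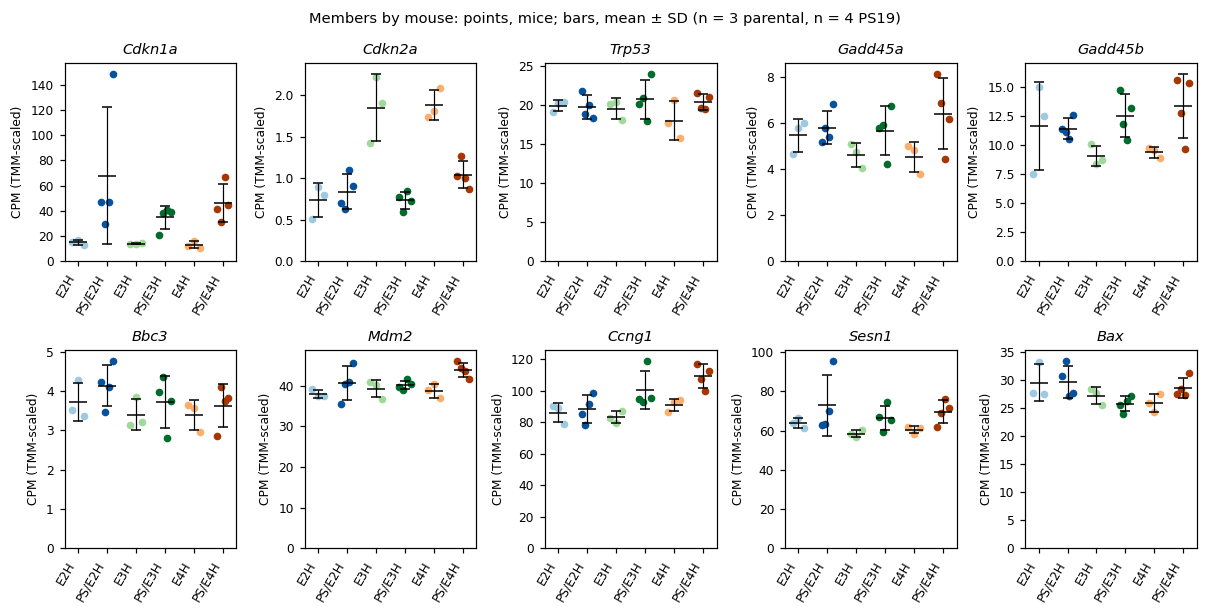
Level of the 10 members in each mouse, in CPM (vertical axes, starting at 0) by group (horizontal axes). Points are mice and bars are mean ± SD of 3 parental or 4 PS19 mice. All PS19 points of Cdkn1a, from 21.1 to 148 CPM, lie above all parental points, which reach 16.7, and the points of Cdkn2a are high in E3H and E4H only.

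**Figure D2:**
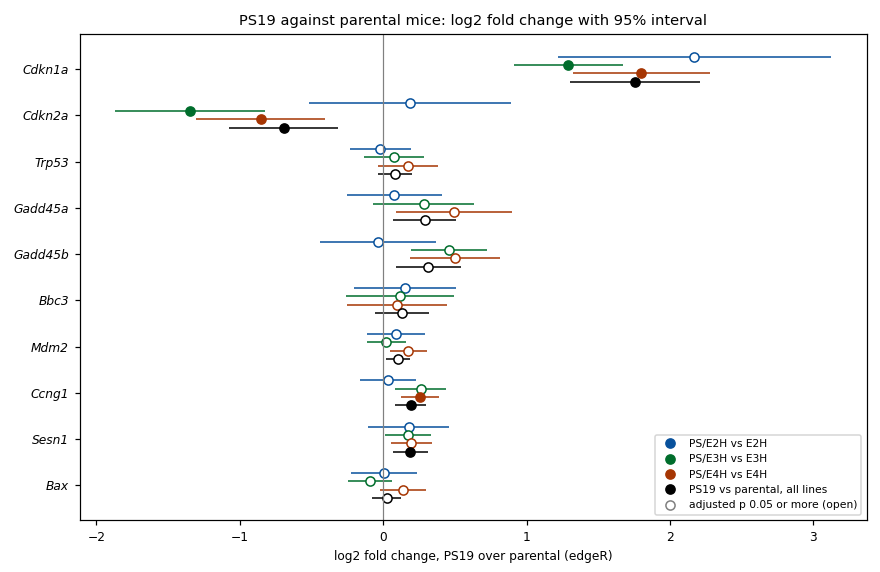
Log2 fold change of each member in PS19 over parental mice (horizontal axis), for each APOE line and for all lines together, with 95% intervals. Filled points passed an adjusted p under 0.05 and open points did not, and Cdkn1a lies at 1.29 to 2.17 in all 4 comparisons while the remaining members except Cdkn2a lie between -0.09 and 0.50.

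Cdkn1a (ENSMUSG00000023067, chr17:29090976-29100727, plus strand) encodes p21, the cyclin-dependent kinase inhibitor that halts cells before DNA replication and is the best known target of p53. In parental mice it was at 15.5, 16.7 and 13.0 CPM in E2H, 14.0, 13.5 and 14.6 CPM in E3H and 12.3, 16.4 and 10.7 CPM in E4H. In PS19 mice it reached 47.2, 29.6, 46.8 and 148 CPM in PS/E2H, 21.1, 38.0, 40.9 and 38.8 CPM in PS/E3H and 41.3, 30.8, 66.9 and 44.7 CPM in PS/E4H. The parental lines were alike, every PS19 mouse stood above every parental mouse, and 1 mouse, PS/E2H replicate 4, stood far above all others.

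Cdkn1a rose 3.38-fold over all lines (log2 fold change 1.76, SE 0.232, adjusted p = 9.5e-06), in 12 of 12 PS19 mice. Within lines it rose in PS/E3H against E3H (log2 fold change 1.29, SE 0.194, adjusted p = 0.00792) and in PS/E4H against E4H (1.80, SE 0.244, adjusted p = 0.00161), and of these calls that in PS/E3H was lost without E3H replicate 1 (1.29, adjusted p = 0.0575). In PS/E2H against E2H it differed by 2.17 on the log2 scale, the largest of the 3 values, but with an SE of 0.486 it did not pass (adjusted p = 0.0918). Without PS/E2H replicate 4 that difference was 1.44 and passed (adjusted p = 0.0132), without PS/E2H replicate 2 it was 2.42 and passed (adjusted p = 0.0472), and it did not pass in the other 5 fits without 1 mouse. Without PS/E2H replicate 4 the value over all lines was 1.52 (adjusted p = 1.58e-07). The same mouse had the highest summed CPM of the glucocorticoid-responsive genes, 1534, and the lowest of the microglia markers, 807, among the 12 PS19 mice. The mouse with the lowest Cdkn1a of the PS19 mice, PS/E3H replicate 1, had the lowest summed astrocyte markers, 5469 CPM, and the highest summed neuron markers, 7884 CPM, among them. It ranked 7 from the top of the 12 in the glucocorticoid-responsive sum. The lowest such sum, 553 CPM, was that of PS/E3H replicate 2, with Cdkn1a at 38.0 CPM. PS/E4H replicate 3, with Cdkn1a at 66.9 CPM, ranked 6. Whether these sums go with Cdkn1a was not tested. Of the 50-base windows of Cdkn1a exons, 8.49% occur in another annotated gene, mostly the antisense AC167363.2, which had 0 to 62 counts per mouse beside 797 to 8794 of Cdkn1a.

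Cdkn2a (ENSMUSG00000044303, chr4:89274471-89294653, minus strand) encodes p16Ink4a and p19Arf, and p16Ink4a is the marker most often used for senescence. It was at 0.504, 0.901 and 0.798 CPM in E2H, 1.42, 2.23 and 1.91 CPM in E3H and 1.74, 1.82 and 2.08 CPM in E4H. In PS19 mice it was at 0.705, 0.632, 1.10 and 0.910 CPM in PS/E2H, 0.772, 0.589, 0.845 and 0.727 CPM in PS/E3H and 1.03, 1.27, 1.01 and 0.871 CPM in PS/E4H. Only the E3H and E4H mice were high, and all 12 PS19 mice lay below them, between 0.589 and 1.27 CPM, in the range of E2H or slightly above it.

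Cdkn2a fell in PS/E3H against E3H (log2 fold change -1.34, SE 0.267, adjusted p = 0.0211) and in PS/E4H against E4H (-0.85, SE 0.230, adjusted p = 0.0322), with no overlap of the mice in either. In PS/E2H against E2H it differed by 0.19 (SE 0.358, adjusted p = 0.917). Over all lines it fell by 0.69 on the log2 scale (SE 0.195, adjusted p = 0.0133). Of 7 fits that left out 1 mouse each, Cdkn2a passed in 3 for PS/E3H (adjusted p = 0.0146 to 0.0993, lost without any of the E3H mice or PS/E3H replicate 4) and in 1 for PS/E4H (adjusted p = 0.0371 to 0.107, kept without PS/E4H replicate 2), while it passed in all 21 such fits over all lines, between -0.82 and -0.605. Cdkn2b, the neighbouring gene of the related inhibitor p15Ink4b, starts 16.4 kb away and did not pass (log2 fold change -0.06 over all lines, adjusted p = 0.895). No 50-base window of Cdkn2a was shared with another gene.

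Ccng1 (ENSMUSG00000020326, chr11:40748552-40755311, minus strand) encodes cyclin G1, a p53 target that recruits a phosphatase to MDM2. It was at 90.3, 89.2 and 79.0 CPM in E2H, 82.5, 79.7 and 87.2 CPM in E3H and 86.7, 92.8 and 93.9 CPM in E4H. In PS19 mice it was at 85.1, 78.4, 91.7 and 98.7 CPM in PS/E2H, 94.8, 93.1, 119 and 95.6 CPM in PS/E3H and 117, 108, 100.03 and 113 CPM in PS/E4H. The PS/E4H and PS/E3H mice lay above their parental lines without overlap, and the PS/E2H mice did not. Ccng1 rose by 0.19 on the log2 scale over all lines (SE 0.0548, adjusted p = 0.0147) and by 0.26 in PS/E4H (SE 0.0677, adjusted p = 0.0291). In PS/E3H it differed by 0.26 (SE 0.0908, adjusted p = 0.123) and in PS/E2H by 0.03 (SE 0.0998, adjusted p = 0.956). The call in PS/E4H held in 3 of 7 fits without 1 mouse (adjusted p = 0.0129 to 0.134, lost without any of the E4H mice or PS/E4H replicate 4) and in 2 of 8 other settings, DESeq2 and DESeq2's size factors in edgeR. The call over all lines held in 21 of 21 fits without 1 mouse.

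Sesn1 (ENSMUSG00000038332, chr10:41809935-41908424, plus strand) encodes sestrin 1, a p53 target that restrains growth signalling through mTORC1 when amino acids or redox balance fail. It was at 64.0, 66.7 and 61.6 CPM in E2H, 58.3, 56.9 and 60.2 CPM in E3H and 61.9, 58.3 and 61.4 CPM in E4H. In PS19 mice it was at 62.8, 63.3, 69.9 and 95.3 CPM in PS/E2H, 67.0, 59.1, 74.4 and 65.3 CPM in PS/E3H and 62.1, 69.0, 76.1 and 71.4 CPM in PS/E4H. The groups overlapped over all lines, and PS/E2H replicate 4 was again the highest. Sesn1 rose by 0.19 over all lines (SE 0.0620, adjusted p = 0.0308), and its value was 0.17 to 0.20 within the lines, where it passed in none (adjusted p = 0.748, 0.251 and 0.0991 in PS/E2H, PS/E3H and PS/E4H). The value in PS/E2H rested on 1 mouse: it was 0.18 with all mice and 0.02 without PS/E2H replicate 4 (adjusted p = 0.977). The call over all lines was lost in 8 of 21 fits without 1 mouse, namely those without E2H replicate 1 or 3, E3H replicate 1 or 2, PS/E3H replicate 3, E4H replicate 1 or 2, or PS/E4H replicate 3, and without PS/E2H replicate 4 the value over all lines was 0.14 (adjusted p = 0.0320). It held in 3 of 8 other settings and was lost in edgeR without the filter on low counts (adjusted p = 0.0507), in the limma fits (0.0506 to 0.0937) and with the replicate block (0.131).

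The other 6 members did not pass over all lines. Trp53 (chr11:69580359-69591873), the gene of p53 itself, was at 15.8 to 20.7 CPM in parental and 17.9 to 24.0 CPM in PS19 mice (log2 fold change 0.08, 95% interval -0.03 to 0.20, adjusted p = 0.367). Mdm2 (chr10:117688875-117710758), its main negative regulator, was at 36.8 to 41.0 and 35.6 to 46.0 CPM (0.10, 95% interval 0.02 to 0.19, adjusted p = 0.0962). These transcript levels say nothing of p53 protein, which is mainly controlled by its stability. The GADD45 proteins take part in DNA repair and in stress kinase signalling. Gadd45a (chr6:67035096-67037457) was at 3.78 to 5.99 CPM in parental and 4.22 to 8.11 CPM in PS19 mice (0.29, 95% interval 0.07 to 0.51, adjusted p = 0.0684), and 15.6% of its 50-base windows are shared with the antisense E230016M11Rik. Gadd45b (chr10:80930073-80932204) was at 7.52 to 15.0 and 9.68 to 15.6 CPM (0.31, 95% interval 0.09 to 0.54, adjusted p = 0.0574). It passed over all lines with DESeq2 (0.30) and with limma on log2(FPKM + 1) (0.27). With edgeR it passed when each of the 6 groups had its own mean (0.32, adjusted p = 0.0399). It also passed in 5 of 21 edgeR fits without 1 mouse, for example without E2H replicate 2 (0.40, adjusted p = 0.00643). Its place on either side of the threshold thus depended on the test, the model and single mice.

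The members that act at the mitochondrion in apoptosis did not pass. Bax (chr7:45461697-45466898), the pore-forming executioner, was at 24.2 to 33.2 CPM in parental and 24.0 to 33.3 CPM in PS19 mice (log2 fold change 0.02, 95% interval -0.08 to 0.13, adjusted p = 0.814). Bbc3 (chr7:16308393-16318205), which encodes the BH3-only protein PUMA and is a direct p53 target, was at 2.96 to 4.28 and 2.80 to 4.75 CPM (0.13, 95% interval -0.06 to 0.32, adjusted p = 0.388). The upper bounds of these intervals, 0.13 for Bax and 0.32 for Bbc3, lay far below the 1.76 of Cdkn1a.

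Within single lines, the count of members that passed was 0 of 10 in PS/E2H (0.752% of all genes passed), 2 of 10 in PS/E3H (5.37%) and 3 of 10 in PS/E4H (15.6%). In PS/E2H, 1 member, Cdkn1a, was at an unadjusted p under 0.05 with edgeR, and DESeq2 called this 1 member. Mice did not overlap for Cdkn1a in PS/E2H (11.7% of all genes), for Cdkn1a, Cdkn2a, Gadd45b and Ccng1 in PS/E3H (19.3%), and for Cdkn1a, Cdkn2a, Mdm2, Ccng1 and Sesn1 in PS/E4H (28.8%). Whether the effect of tau differed between APOE lines was tested as an interaction, and 0 of 10 members passed in any of the 3 pairs of lines, as did 0 of 22031 to 22212 genes. Of these 30 tests, 2 were at an unadjusted p under 0.05 with edgeR, both of Cdkn2a, and DESeq2 also called 0. The change of Cdkn2a in the APOE2 line minus that in the APOE3 line was 1.53 (SE 0.416, adjusted p = 0.843), and the change in the APOE4 line minus that in the APOE2 line was -1.04 (SE 0.389, adjusted p = 0.402). For Cdkn1a the change in the APOE2 line minus that in the APOE3 line was 0.88 (SE 0.558, adjusted p = 0.862).

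To ask whether the members' levels differed with APOE genotype, the parental lines were compared with each other, and then the PS19 groups. Some of these groups also differed in their number of females, and the paper reported that paralysis came latest in PS/E3H. In the comparisons concerned, sex and age at death cannot be told apart from APOE genotype. No member passed in any of these 6 comparisons, in which 0.178% (E2H against E3H), 0.162% (E4H against E3H), 0.216% (E4H against E2H), 0.113% (PS/E2H against PS/E3H), 0.0197% (PS/E4H against PS/E3H) and 0.119% (PS/E4H against PS/E2H) of all genes did. With edgeR, 1 of the 10 members was at an unadjusted p under 0.05 in each comparison except PS/E4H against PS/E3H, which had 0. Cdkn2a was the member that differed most between parental lines: E2H minus E3H was -1.34 on the log2 scale (SE 0.316, adjusted p = 0.218) and E4H minus E2H was 1.37 (SE 0.289, adjusted p = 0.245), with no overlap of the mice, which 23.3% and 21.3% of all genes also showed. DESeq2 called both differences, and so did edgeR with all 21 mice in 1 fit. Between E4H and E3H the difference of Cdkn2a was 0.03 (95% interval -0.42 to 0.47). Among PS19 mice, Ccng1 differed by 0.31 between PS/E4H and PS/E2H (SE 0.0845, adjusted p = 0.282), and Cdkn1a by 0.96 between PS/E2H and PS/E3H (SE 0.425, adjusted p = 0.423).

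Further genes of the same pathways were read from 13 lists with 184 entries, chosen by function, with earlier results of these data known. Over all lines, 21% of all genes passed, 11.4% higher and 9.63% lower. Of 25 other p53 targets, 10 rose and 3 fell over all lines (median log2 fold change 0.10). Trp53inp1, an autophagy and cell death factor, rose by 0.54 (SE 0.0815, adjusted p = 4.39e-05), from 12.2 to 15.6 CPM in parental to 15.0 to 25.7 CPM in PS19 mice. Perp, an apoptosis effector of cell junctions, rose by 0.52 (SE 0.0940, adjusted p = 0.000317), and Aen, an apoptosis-linked nuclease, by 0.27 (SE 0.0513, adjusted p = 0.000506). Gdf15, a stress cytokine, passed as well (adjusted p = 0.00051), with 0 to 5 counts in parental and 4 to 44 counts in PS19 mice, too few for a firm fold. The remaining 12 of the 25 did not pass. Of 17 p53 regulators and partners 2 rose, Trp53bp2 (0.40, adjusted p = 3.59e-05), a p53-binding ASPP protein, and the kinase Hipk2 (0.48, adjusted p = 0.0385), and 1 fell, the acetyltransferase Crebbp (-0.22, adjusted p = 0.00525), and 5 of the 17 passed without E2H replicate 2. With all mice, the share of this list that passed, 17.6%, was below the 21% of all genes.

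Of 16 other CDK inhibitors and genes of the RB pathway, 3 rose and 0 fell, a share of 18.75% where 21% of all genes passed. They were Cdkn1c, the inhibitor p57Kip2 (0.44, adjusted p = 0.00388), Ccnd3, a D-type cyclin (0.30, adjusted p = 0.00487), and Cdkn2c, the inhibitor p18Ink4c (0.51, adjusted p = 0.00532), and 6 of the 16 passed without PS/E3H replicate 1. Of 12 proliferation genes 0 passed with edgeR or DESeq2, 2 were at an unadjusted p under 0.05 with edgeR, and 1 passed with a separate mean for each of the 6 groups or without E2H replicate 2, E4H replicate 1 or PS/E4H replicate 3 or 4. Of 9 other GADD45 and DNA damage stress genes, 4 rose and 1, the kinase Mapk14, fell. Gadd45g, the third GADD45 gene, rose by 0.67 (SE 0.0936, adjusted p = 1.93e-05), from 6.26 to 9.98 CPM in parental to 8.54 to 13.7 CPM in PS19 mice, and the stress factor Atf3 rose by 1.56 (SE 0.225, adjusted p = 2.82e-05), from 0.888 to 1.97 CPM to 2.02 to 8.13 CPM. Of 19 other BCL2 family members and caspases, 8 rose and 0 fell, led by Bcl2a1b (2.13, adjusted p = 1.14e-07) and Mcl1 (0.31, adjusted p = 4.79e-06), both of which protect from apoptosis, followed by the BH3-only Bmf (0.69, adjusted p = 0.000513) and the initiator caspase Casp8 (0.62, adjusted p = 0.0034).

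Of 24 senescence and secretory genes 23 were tested, 17 rose and 0 fell (median log2 fold change 0.87). Spp1, the cytokine osteopontin, rose by 1.72 (SE 0.250, adjusted p = 2.99e-05), and Timp1, a metalloproteinase inhibitor, by 2.35 (SE 0.349, adjusted p = 3.74e-05). The protease Mmp3 had 0 counts in 8 of 9 parental mice and 4 in the other, and 8 to 1483 counts in PS19 mice (adjusted p = 5.77e-05). Several genes of this list are made by reactive glia, and 11 of 12 microglia markers and 9 of 9 astrocyte markers rose in the same contrast, 5 of 9 oligodendrocyte markers and 2 of 8 vascular markers rose, and of 10 neuron markers 2 rose and 5 fell. Without PS/E2H replicate 4, 8 of the 9 oligodendrocyte markers passed, and without E4H replicate 2, 1 of the 8 vascular markers did. Their part in the secretory list was not tested. Of 14 glucocorticoid-responsive genes, which the receptor of the adrenal stress hormones activates, 13 rose and 0 fell (median 0.996). Plin4, a lipid droplet protein, rose by 3.44 (SE 0.346, adjusted p = 2.64e-07), Mt2 by 1.27 (SE 0.136, adjusted p = 5.67e-07), Mt1 by 0.996 (SE 0.118, adjusted p = 2.14e-06) and Txnip by 0.79 (SE 0.101, adjusted p = 5.48e-06). Their summed CPM was 411 to 626 in parental and 553 to 1534 in PS19 mice.

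**Figure D3:**
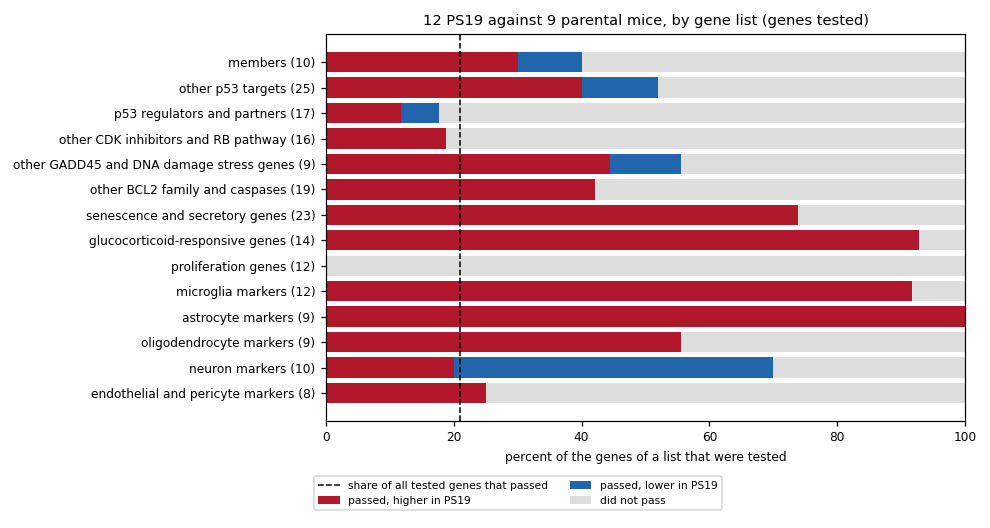
Share of the tested genes of each list that passed in PS19 against parental mice over all lines (horizontal axis, percent), with the number tested in brackets. Red is higher, blue is lower and grey did not pass, and the dashed line marks the 21% of all genes that passed. The glucocorticoid-responsive, secretory, microglia and astrocyte lists reach 92.9%, 73.9%, 91.7% and 100%, and the proliferation list is at 0.

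**Figure D4:**
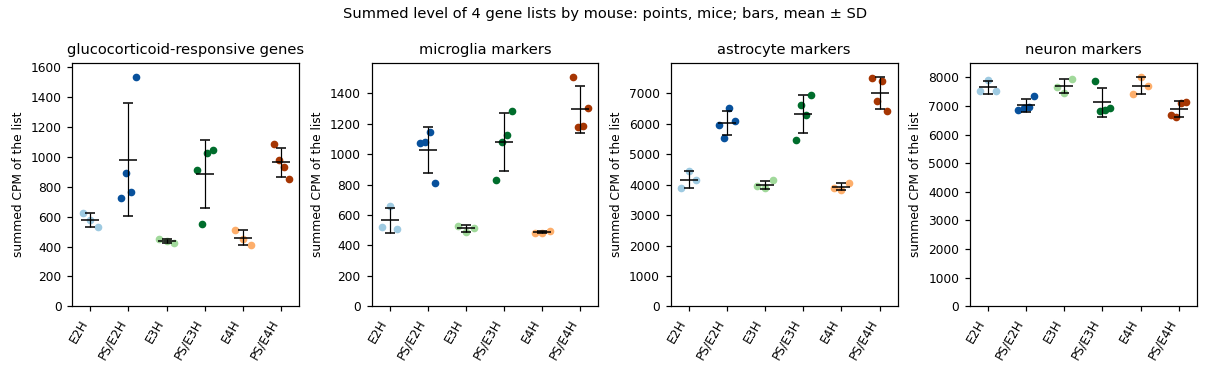
Summed CPM of 4 lists in each mouse (vertical axes, starting at 0) by group. Points are mice and bars are mean ± SD of 3 parental or 4 PS19 mice. Microglia and astrocyte sums separate PS19 from parental mice. The glucocorticoid-responsive sum overlaps between 553 and 626 across lines but not within a line. There it reaches 626 in E2H, 448 in E3H and 511 in E4H, and starts at 726 in PS/E2H, 553 in PS/E3H and 852 in PS/E4H. The highest point of that panel, 1534, is PS/E2H replicate 4.

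Pearson's r with each member that passed was taken of log2 CPM over the 21 mice, after each group mean was subtracted. The genes with the highest r were picked from the 22863 genes tested over all lines. This is a description without a test, since the counts of a mouse share its library, and the highest of so many values can be high by chance. For Cdkn1a the genes with the highest r were Gm12868 (r = 0.90), Sgk3 (0.87), Sat1 (0.87), Golm1 (0.85) and Hacd2 (0.84). For Sesn1 they were Sgk3 (0.89), Pip5k1b (0.87), Lurap1l (0.87), Pdk4 (0.87) and Fkbp5 (0.86). Sgk3 stood in both lists, and PS/E2H replicate 4 weighed on both, since without it r was 0.74 between Sgk3 and Cdkn1a and 0.77 between Sgk3 and Sesn1. For Ccng1 the closest were Lsm14a and Nab1 (0.81 each), and for Cdkn2a, at its low counts, Zfp37 and Gm4129 (0.75 each).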

How the data were processed

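Forebrain RNA of 21 mice was analysed, grouped by label. Libraries were stranded and selected for poly(A). The authors trimmed reads with cutadapt, mapped them with HISAT2 (GRCm38.p5 per the labels) and used StringTie. They deposited raw counts per gene, whose derivation and strand setting are not given in the sources used here, and FPKM values.

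The members and gene lists were chosen with earlier results of these data known. Counts were fitted with edgeR 4.0.16 in R 4.3.3 (TMM, filterByExpr with minimum count 10 and total 15, two-sided quasi-likelihood test, Benjamini-Hochberg over all genes tested, threshold 0.05). Comparisons of 2 groups used the mice of those groups, that over all lines all 21 mice with the APOE line as a term, and interactions 4 groups. SE is the absolute log2 fold change over the square root of F, and 95% intervals assume normal error. Of each other list, at most the 4 genes with the smallest adjusted p over all lines are named, and 1 of these is not reported here. Eda2r and Fas, from the list of other p53 targets, were named in addition to these, after their values were seen. Alternatives were DESeq2 1.42.0 (the study's test), its size factors, limma 3.58.1 on log2(FPKM + 1) or log2(FPKM + 0.1), no filter, all mice in 1 fit, a replicate block, leaving out each mouse and a 2-fold limit. The code was tested on simulated data. None of 27 pairs of mice within groups were identical. Promoters came from RefSeq (GRCm38.p6), gene positions from GENCODE M21 (GRCm38). Counting error weighs most on low genes such as Cdkn2a.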

Additional observations from a re-analysis of the deposited data

Results flagged for a closer look

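Among the 30 sets of 4 PS19 mice (10 members in 3 groups), 3 held a mouse whose gap to its neighbour relative to the range of the group passed Dixon's 95% limit, which chance passes in about 1 of 20 groups. Cdkn1a in PS/E2H replicate 4 was at 148 CPM, against 29.6 to 47.2 CPM in the other 3 mice. Cdkn1a in PS/E3H replicate 1 was at 21.1 CPM, against 38.0 to 40.9 CPM. Ccng1 in PS/E3H replicate 3 was at 119 CPM, against 93.1 to 95.6 CPM. PS/E2H replicate 4 was also the highest PS19 mouse for Sesn1 (95.3 CPM), for Mdm2 within its group (45.7 CPM) and for the summed glucocorticoid-responsive genes (1534 CPM). What set these mice apart was not tested.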

How the results depend on the processing

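The rise of Cdkn1a over all lines passed in every setting tried (1.41 to 1.76 on the log2 scale) and in all 21 fits without 1 mouse (1.52 to 1.83), and so did the fall of Cdkn2a over all lines (-0.71 to -0.34 and -0.82 to -0.605), except with the 2-fold limit. With 1 mouse left out, the number of members that passed was 0 to 1 for PS/E2H, 0 to 2 for PS/E3H, 1 to 4 for PS/E4H, 3 to 5 over all lines and 0 in every APOE comparison and interaction. For PS/E2H, 1 member (Cdkn1a) passed with DESeq2, with all mice in 1 fit and with the replicate block. For PS/E3H, 4 passed with DESeq2 (Ccng1, Cdkn1a, Cdkn2a and Gadd45b), 0 with limma without the filter on low FPKM, 1 with all mice in 1 fit (Cdkn2a) and 1 with the replicate block (Cdkn1a). For PS/E4H, 4 passed with DESeq2, which added Gadd45b, 2 (Cdkn1a and Cdkn2a) without the filter on low counts, with each of the 3 limma fits and with all mice in 1 fit, and 1 (Cdkn1a) with the replicate block or the 2-fold limit. Over all lines, 5 passed with DESeq2 and with all mice in 1 fit, which added Gadd45b, 3 without the filter on low counts, which lost Sesn1, and 4 with limma on log2(FPKM + 1) or log2(FPKM + 0.1), with Gadd45b in place of Sesn1. There, 2 (Cdkn1a and Cdkn2a) passed with limma without the filter on low FPKM, 2 (the same genes) with the replicate block and 1 (Cdkn1a) with the 2-fold limit. For E2H against E3H and for E4H against E2H, 1 (Cdkn2a) passed with DESeq2 and 1 with all mice in 1 fit. The cause of these moves was not tested. Of 30 pairs of mice with the same replicate number, 4 had an r above 0.1 (r between -0.22 and 0.25). The highest, 0.25 and 0.17, were in PS/E2H against E2H. In 0 of 9 comparisons were all pairs above 0.1, so the replicate block rests on a shared number only. Replicate 4 exists only in the PS19 groups, so within a line the block in effect leaves that mouse out. For PS/E2H, Cdkn1a differed by 1.42 with the block and by 1.44 without PS/E2H replicate 4.

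Of the differences between PS19 and parental mice, those that changed sign had not passed. In PS/E2H these were Gadd45b with limma (0.030 for log2(FPKM + 1) and 0.040 for log2(FPKM + 0.1)), Trp53 with limma (0.0024 and 0.0025) and with the replicate block (0.010), Ccng1 (-0.027) and Gadd45a (-0.0052) with the replicate block, and, over the fits without 1 mouse, Bax (-0.054 to 0.10), Ccng1 (-0.027 to 0.087), Cdkn2a (-0.022 to 0.36), Gadd45a (-0.024 to 0.15), Gadd45b (-0.27 to 0.18) and Trp53 (-0.073 to 0.012). In PS/E3H they were Mdm2 with limma (-0.0018 and -0.0020) and without 1 mouse (-0.023 to 0.057), and Trp53 with the replicate block (-0.0023) and without 1 mouse (-0.0010 to 0.14). Over all lines it was Bax without 1 mouse (-0.00021 to 0.048). Between APOE lines and in the interactions, 26 of 90 member values, none of which had passed, changed sign under some setting or without 1 mouse. Of these, 2 lay more than 0.13 from 0, Cdkn1a in PS/E4H against PS/E2H (-0.57, and 0.15 without PS/E2H replicate 4) and in the interaction of the same lines (-0.37, and 0.35 without PS/E2H replicate 4). Cdkn2a in E4H against E3H (0.03) ranged from -0.13 to 0.18 without 1 mouse. With the 2-fold limit, 0 to 9 genes of each other list passed. Cdkn2a rested on 37 to 155 counts per mouse.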

Other observations

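Eda2r, a p53-regulated TNF receptor named here after its values were seen, rose by 1.42 on the log2 scale over all lines (SE 0.351, adjusted p = 0.00535 by edgeR), from 0.206 to 0.624 CPM in parental to 0.337 to 2.34 CPM in PS19 mice. Fas, a death receptor and p53 target chosen in the same way, rose by 0.89 (SE 0.198, adjusted p = 0.00244). Both stand in the list of 25 other p53 targets, of which 10 rose, 3 fell and 12 did not pass over all lines. The genes named from this list are all among those that rose, and the 3 that fell are not named.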
